A study of Mus musculus with 5 samples.

Results

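The transcriptome described here is that of the control pituitary of the mouse embryo at e12.5, read from 3 libraries of a series of 5. The 3 were chosen by their labels alone, as control libraries 9, 10 and 12, and the 2 libraries of knockout embryos were not used. All 3 control samples were epithelial pituitary cells of B6;129 embryos with the genotype Itgb1 f/f and no Cre transgene. Itgb1 encodes integrin beta 1, a shared subunit of receptors for extracellular matrix, and the controls carried floxed alleles of it, so they were not plain wild-type embryos. The labels name separate biological replicates. They do not say whether a sample was 1 embryo or a pool. Total RNA was depleted of ribosomal RNA and sequenced, and each value is a number of tags (aligned reads) per 10000000 total tags of a library. Every one of 20097 gene symbols was measured in each library, and 17829 of them matched a protein-coding gene.

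At this age the anterior pituitary is Rathke's pouch, a pocket of oral ectoderm that has met the floor of the diencephalon. Pitx1, Lhx3, Six6 and Hesx1 are transcription factors of the dividing pouch cells, and Pou1f1 acts later, on the way to cells that make growth hormone, prolactin and thyrotropin. FGF and BMP signals from the diencephalon and Sonic hedgehog from the oral ectoderm pattern the pouch. Head mesenchyme, blood vessels and neural tissue lie against it.

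Levels of different genes were compared as a density, the tags per kilobase (kb) of a gene's listed region, introns included. Background was taken from 392 olfactory and vomeronasal receptor genes of the autosomes, sensory receptors of the nose. Their density was 0.258 in library 9, 0.392 in library 10 and 0.157 in library 12. A gene is called above background in a library when the lower bound of its 95% exact Poisson interval lies above that density, and detected when this holds in all 3. The interval covers counting error only.

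Of the coding genes, 10722 (60.1%) were detected, 3228 (18.1%) passed in 1 or 2 libraries and 3879 (21.8%) passed in none. The same count over all symbols was 11610 (57.8%) detected and 4728 (23.5%) in none. Only 3 of the 392 receptor genes that set the background were themselves called. The median density of a coding gene was 1.03 tags per kb, the 95th percentile was 7.72 and the 99th was 28.6. A longer region collects more tags at the same density, and the detected share rose with length: 34.1% of coding genes with regions under 5 kb were detected, and 82.2% of those of 100 kb and over. A count of 395 coding genes stood at 0 tags in all 3 libraries, 393 of them with regions under 5 kb. In a region of 1163 bp, that of Hesx1, 3 reads would give 2.35 tags per kb, so a short gene at 0 is not shown to be silent.

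**Figure D1:**
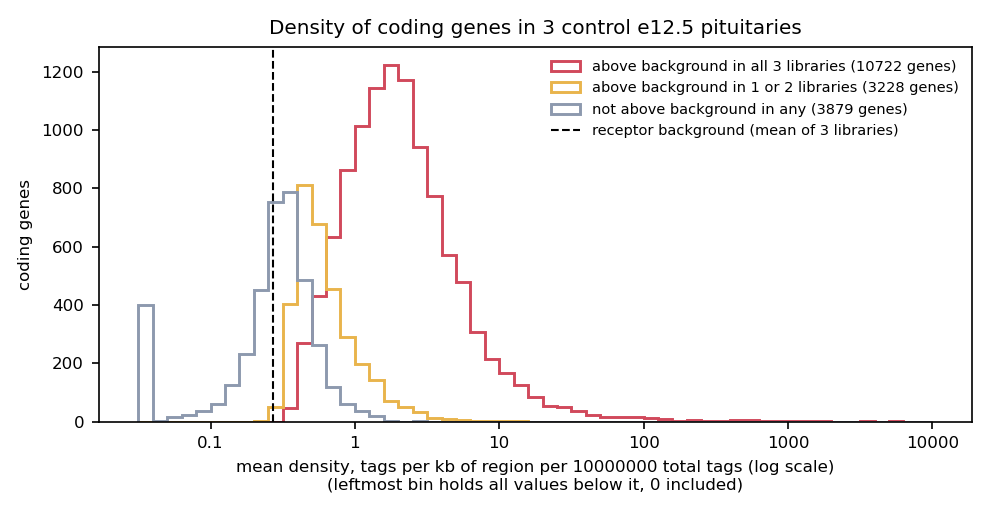
Mean density over the 3 control libraries (horizontal, tags per kb of region per 10000000 total tags, log scale) against the number of coding genes (vertical). The 10722 detected genes spread from the background to far above 1000 tags per kb, and the 3879 genes above background in no library lie around the dashed line of the receptor background.

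Promoters of 4 genes, 2 pouch factors and 2 hormone genes, are shown because detected and undetected genes differed in promoter composition. The windows run from 250 bases before to 50 bases after the annotated start, 5′ to 3′ on the strand of the gene, from RefSeq on GRCm38.p6. Capitals mark CG dinucleotides and the letters TATAAA, a form of the TATA box that positions the start of transcription. Six6 (chr12:72939632-72939931, plus strand) and Hesx1 (chr14:27000112-27000411, plus strand) were detected. So was Cga (chr4:34893529-34893828, plus strand), the alpha subunit that thyrotropin and the gonadotropins share. Prl (chr13:27057320-27057619, plus strand), prolactin, was above background in no library.
Six6: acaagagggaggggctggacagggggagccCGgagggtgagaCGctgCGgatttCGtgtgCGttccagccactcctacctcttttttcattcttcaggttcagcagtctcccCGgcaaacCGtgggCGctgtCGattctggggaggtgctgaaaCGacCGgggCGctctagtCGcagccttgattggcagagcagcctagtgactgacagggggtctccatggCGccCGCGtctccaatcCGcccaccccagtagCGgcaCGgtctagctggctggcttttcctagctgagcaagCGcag
Hesx1: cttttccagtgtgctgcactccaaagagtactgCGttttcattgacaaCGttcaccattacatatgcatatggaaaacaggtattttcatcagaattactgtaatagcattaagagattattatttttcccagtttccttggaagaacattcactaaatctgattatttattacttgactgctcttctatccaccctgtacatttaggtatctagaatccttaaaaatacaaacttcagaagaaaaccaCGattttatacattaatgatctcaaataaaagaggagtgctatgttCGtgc
Cga: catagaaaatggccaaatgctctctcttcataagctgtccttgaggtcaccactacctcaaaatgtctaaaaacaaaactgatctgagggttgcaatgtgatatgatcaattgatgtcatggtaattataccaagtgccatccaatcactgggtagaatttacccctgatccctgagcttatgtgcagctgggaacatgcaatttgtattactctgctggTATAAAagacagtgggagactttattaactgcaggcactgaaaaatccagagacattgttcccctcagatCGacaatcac
Prl: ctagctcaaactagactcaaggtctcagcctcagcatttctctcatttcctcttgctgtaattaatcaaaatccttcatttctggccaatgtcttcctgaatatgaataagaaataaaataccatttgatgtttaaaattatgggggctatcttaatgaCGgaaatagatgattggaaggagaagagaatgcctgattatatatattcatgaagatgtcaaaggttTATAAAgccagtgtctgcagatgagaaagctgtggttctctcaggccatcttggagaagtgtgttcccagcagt

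The Six6 window held 20 CG dinucleotides and no TATAAA, whereas the Cga and Prl windows held 1 CG and 1 TATAAA each. Hesx1, with 4 CG, was detected from a CG-poor window. Over the table, a promoter was listed for 8608 (80.3%) of the detected coding genes, and their median was 21 CG per window. For the genes above background in no library the median was 3 CG, over 3118 genes (80.4%). At least 10 CG stood in 86.7% of the first group and 18.99% of the second, and in 43.5% of all 32851 listed promoters. TATAAA, searched on the strand of the gene only, was in at least 1 listed window of 4.82% of detected genes and 17.0% of the undetected, and in 8.32% of all listed promoters. The shares over all listed promoters count each window by itself, without a limit to coding genes, so they are not shares of coding genes. Short regions are detected less often, so the comparison was also made at like lengths. With regions under 5 kb the medians were 20 and 3 CG, and with regions from 5 kb to under 20 kb they were again 20 and 3. Windows were listed for 5 of the 6 measured hormone genes, with a median of 2 CG, and all 5 held TATAAA. For the 22 genes of G2 and M phase, 18 windows were listed, with a median of 24 CG, and none held TATAAA.

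**Figure D2:**
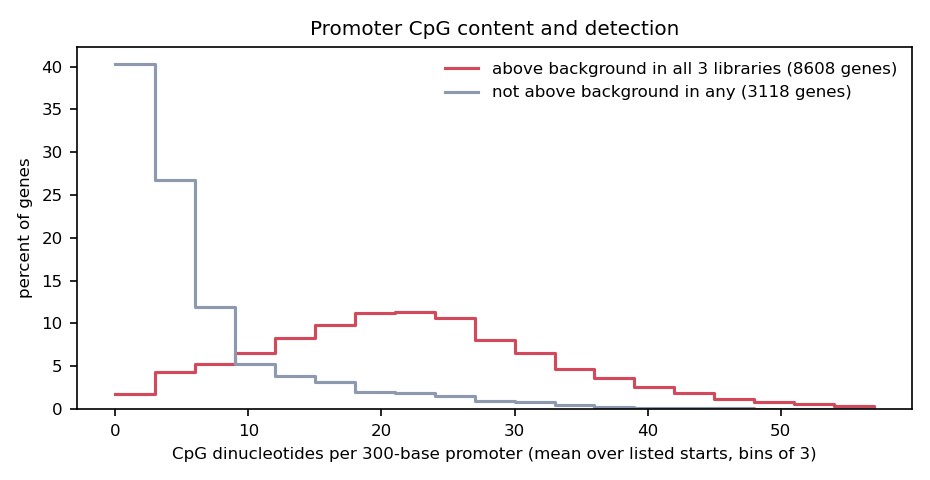
CG dinucleotides per 300-base promoter window (horizontal, averaged over a gene's listed starts, in bins of 3) against the percent of genes (vertical) for coding genes detected in all 3 control libraries and coding genes above background in none. The undetected genes pile up at the left, with a median of 3, and the detected genes spread around a median of 21.

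The pouch markers were dense in all 3 libraries. Pitx1 (mm9 chr13:55926815-55932386), which marks the oral ectoderm and every stage of the anterior pituitary, stood at 97.3, 137 and 148 tags in libraries 9, 10 and 12, a density of 22.9 ± 4.81 tags per kb (SD, n = 3). Six6 (chr12:74041732-74045886), which keeps pituitary and retinal progenitors dividing, stood at 71.8, 154 and 119 tags, or 27.6 ± 9.89 per kb. Lhx3 (chr2:26056132-26061676), a LIM factor needed for the pouch to grow, stood at 51.8, 66.4 and 82.7 tags, or 12.1 ± 2.79 per kb. Each of the 3 genes lay at least at the 97.2 percentile of coding densities, and library 9 was the lowest for all of them.

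Hesx1 (chr14:27814348-27815511), a repressor that is on early in the pouch and is later switched off, stood at 10.9, 18.2 and 26.4 tags over a short region, or 15.9 ± 6.65 per kb. Its counts were lower than those of Pitx1 and so had a wider counting error, but it was above background in every library.

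Of 22 measured factors of the pouch and its progenitors, 21 were detected, against 60.1% of all coding genes. Their median density was 6.52 tags per kb, against 1.03 for coding genes. Sox2, a factor of progenitor cells, stood at 38.2, 38.2 and 50.9 tags (25.6 ± 4.44 per kb), and its region also holds the listed microRNA Mir1897. Hes1, a target of Notch signalling, stood at 15.5 ± 6.30, Tbx3 at 10.9 ± 1.07 and Sox9 at 6.96 ± 0.44. Isl1, which is needed in the early pouch, stood at 5.59 ± 0.56. Lhx4, the close relative of Lhx3, was near the coding median at 1.03 ± 0.13. The exception, Sall4, stood at 8.18, 17.3 and 4.55 tags and passed in 1 or 2 libraries.

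A wider list of transcription factors gave 613 measured genes. Of these 315 (51.4%) were detected, 143 passed in 1 or 2 libraries and 155 in none, a smaller detected share than the 60.1% of coding genes. Ranked by density at a mean of at least 20 tags, Atf2 came first at 399.7 ± 56.6 per kb, but its 75306-bp region overlaps the annotated small RNA gene Gm27421, and its 33911.8, 25502.7 and 30881.8 tags were lowest in library 10, as were those of the ribosomal precursor Rn45s. Id3, a protein that binds bHLH factors and keeps them off DNA, came next with 50, 68.2 and 52.7 tags over a short region, or 74.0 ± 12.7 per kb. Its relative Id2 stood at 33.3 ± 12.03. SOX factors of group C, common in embryonic progenitors and young neurons, followed: Sox4 at 50.6 ± 11.8, Sox11 at 38.2 ± 5.01 and Sox12 at 15.3 ± 3.19 per kb.

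Factors of stress and growth responses stood among them, with Jund at 42.5 ± 4.61 per kb, Atf4 at 40.1 ± 18.6, Jun at 15.2 ± 1.75 and Xbp1, a factor of secretory cells, at 15.1 ± 3.99. Zfp36l1, included in the zinc finger list although it binds RNA, stood at 37.6 ± 14.0. The Notch-related Hey1 stood at 28.1 ± 4.11 and Hes6 at 22.3 ± 5.39. Six2, a factor of mesenchyme, stood at 14.6 ± 5.46, and Plagl1, an imprinted zinc finger gene that overlaps the small RNA gene Gm27741, at 13.3 ± 3.36. In this order Atf2 and Id3 were the only factors of the first 40 whose lowest library exceeded the highest library of the next factor. From Sox4 on, neighbours overlapped, so their order is not resolved by 3 libraries.

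**Figure D3:**
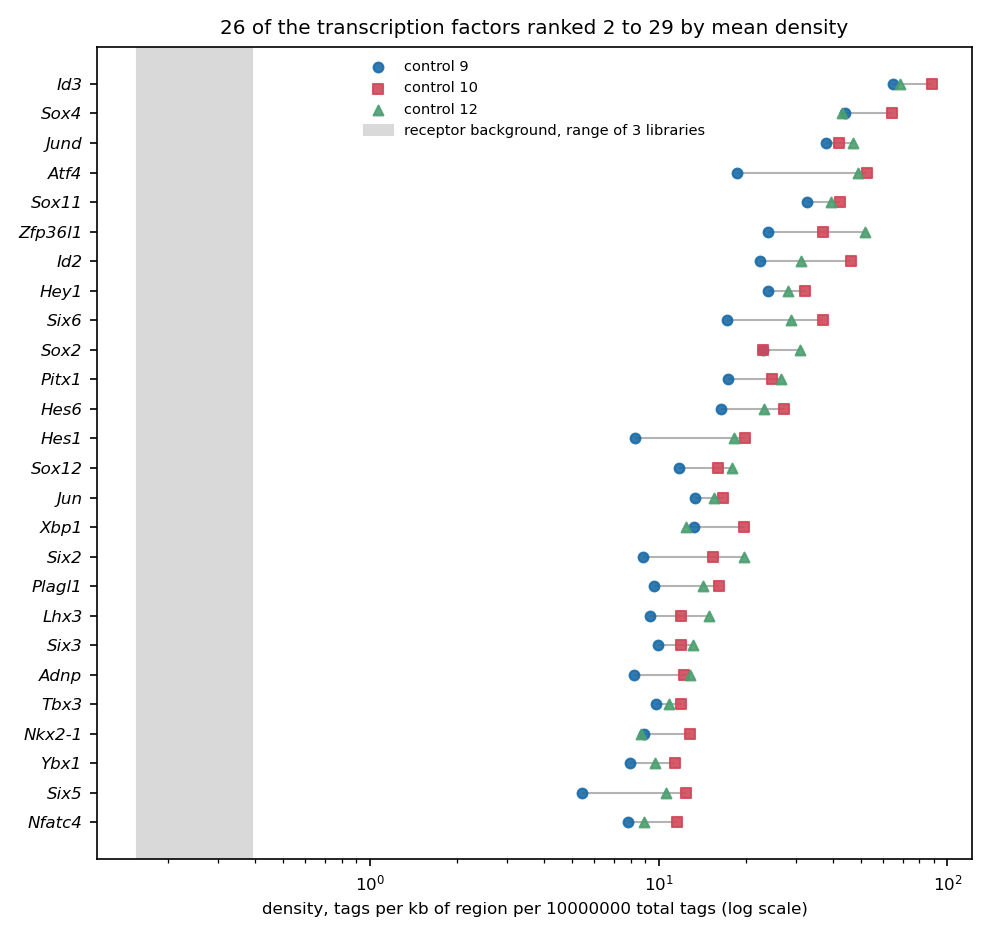
Density of 26 of the transcription factors ranked 2 to 29 (horizontal, tags per kb of region per 10000000 total tags, log scale), with one point per control library and a grey line over their range. All points lie above the grey band of the receptor background, and library 9 is the lowest for most factors, Pitx1, Six6 and Lhx3 included.

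Short regions fill that order, so factors with long regions were also ranked among themselves. Among those of 100 kb and over, Nfib stood at 556, 1057 and 1124 tags, or 4.26 ± 1.45, Tcf12 at 3.87 ± 1.43 and Eya1, a coactivator of homeodomain proteins, at 3.05 ± 1.24 per kb, and the regions of these 3 overlap annotated small RNA genes. Gli3, an effector of hedgehog signalling, stood at 3.02 ± 1.17. Between 20 kb and 100 kb, Adnp stood at 11.1 ± 2.54 and Sp1 at 6.17 ± 2.12.

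Families of factors were counted against the 51.4% of all listed factors and the 60.1% of coding genes that were detected. In the list of TALE and other homeobox genes that holds Six6, 25 of 36 (69.4%) were detected, and in the list of paired, LIM and POU genes 19 of 48 (39.6%). Of the 36 measured HOX genes, which give cells of the trunk and hindbrain their position, 0 were detected, 28 passed in no library and 8 in 1 or 2. Median HOX densities were 0.65, 0.72 and 0.13 per kb in libraries 9, 10 and 12, against a background of 0.258, 0.392 and 0.157. Hoxa4 held the most tags, 14.6, 28.2 and 8.18 over 43205 bp, or 0.39 per kb. How well this listed region matches the Hoxa4 gene was not tested. The list of NKX, DLX, MSX and related homeobox genes had 7 of 58 (12.1%) detected and 31 in none. Nkx2-1 led it at 10.2 ± 2.33 per kb and Dlx3 stood at 1.59. Shares near those of all factors were found for SOX genes (11 of 20), FOX genes (18 of 40), bHLH genes (39 of 79) and nuclear receptors (25 of 45). T-box genes had 6 of 16 (37.5%). In the list of ETS, RUNX, TEAD and similar factors 49 of 65 (75.4%) were detected. The detected share rises with region length, and the families were not compared at like lengths. None of these differences between families was tested.

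Few hormone genes were detected, although their median density of 0.98 per kb was near the 1.03 of coding genes. Cga (chr4:34841828-34854623) stood at 31.8, 107 and 55.4 tags, or 5.07 ± 3.02 per kb, so libraries 9 and 10 differed by more than 3-fold in a gene that marks the first hormone cells, against a median ratio of 1.72 over coding genes with a mean of at least 50 tags. Pomc (chr12:3955751-3960618), the precursor of corticotropin, stood at 20.9, 12.7 and 3.64 tags, or 2.55 ± 1.78 per kb. Library 9 was the highest for Pomc and the lowest for Cga. Cga and Pomc were the 2 of 6 measured hormone genes (33.3%) that were detected, against 60.1% of coding genes. With a 99% counting interval 1 remained. Tshb, the beta subunit of thyrotropin, stood at 0.91, 5.45 and 3.64 tags and passed in 1 or 2 libraries. Gh stood at 0.91 tags in each library, Fshb at 1.82, 1.82 and 0, and Prl at 1.82, 0.91 and 0, and none of these passed in any library. In the 742-bp region of Gh, 3 reads would give 3.68 tags per kb, so a low level of Gh was not detectable at this depth.

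Of 18 factors of hormone cell lineages 10 (55.6%) were detected, a share near the 60.1% of coding genes. Insm1, a zinc finger factor of endocrine cells, stood at 18.2, 18.2 and 15.4 tags (7.78 ± 0.71 per kb) and Gata2, a factor of gonadotropes and thyrotropes, at 5.97 ± 1.21. Tbx19, which activates Pomc, was detected at 18.2, 20 and 15.4 tags over 22120 bp (0.81 ± 0.10 per kb). Pou1f1, at 1.82, 9.09 and 0.91 tags, and Neurod4 were above background in no library. Nr5a1, a factor of gonadotropes, stood at 12.7, 12.7 and 3.64 tags and passed in 1 or 2. Of 9 receptors for hypothalamic releasing factors 0 were detected. Sstr2, Ghrhr, Ghsr, Crhr1 and Drd2 passed in 1 or 2 libraries, and Avpr1b, Sstr5, Trhr and Gnrhr, the receptor for gonadotropin-releasing hormone, in none.

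The machinery of secretory granules was uneven. Scg2, secretogranin II, was dense at 162, 335 and 185 tags (49.2 ± 20.4 per kb), the 99.4 percentile of coding genes, and Chga, chromogranin A, stood at 7.53 ± 2.65. Pcsk1n stood at 2.24 ± 1.21. In all 6 of 11 such genes (54.5%) were detected, against 60.1% of coding genes. Pcsk1, a protease that cuts prohormones, passed in 1 or 2 libraries, and its relative Pcsk2 in none, at 3.64, 4.55 and 3.64 tags.

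Epithelial genes spanned a wide range of densities. Cldn6 (chr17:23817132-23819414), a tight junction protein of embryonic epithelia, stood at 126, 191 and 178 tags, or 72.4 ± 14.98 per kb, denser than any detected pouch factor. Krt18, a keratin of simple epithelia, stood at 70.9, 115 and 93.6 tags (30.9 ± 7.25 per kb), Cldn4 at 19.2 ± 3.41, Epcam at 11.3 ± 2.97 and Krt8 at 6.74 ± 2.16. Among keratins of stratified epithelia, Krt5 stood at 10.9, 13.6 and 3.64 tags (1.87 ± 1.03 per kb), Krt14 passed in 1 or 2 libraries and Krt17 in none. Krt19, a keratin of simple epithelia like Krt8 and Krt18, passed in none either, at 0.91, 4.55 and 0 tags. Trp63, a regulator of stratified epithelium, stood at 60, 96.4 and 44.5 tags over 207523 bp, or 0.32 ± 0.13 per kb, and passed in 1 or 2. The list of surface epithelium genes had 12 of 20 detected, close to the coding share. Over all 47 keratins listed 6 were detected, and over all 23 claudins 12.

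Cell cycle genes were detected without exception. All 22 genes of G2 and M phase passed, with a median density of 4.82, and all 19 genes of S phase, with a median of 4.68. Mki67, the antigen of dividing cells, stood at 394, 649 and 704 tags (22.6 ± 6.42 per kb). Ccna2 stood at 18.2 ± 4.69 and Top2a at 14.4 ± 3.17. In S phase Pcna stood at 17.5 ± 3.38, Rrm2 at 9.998 ± 1.72 and Mcm2 at 7.19 ± 1.51. The inhibitor Cdkn1c, an imprinted gene that brings progenitors out of the cycle, was denser than these at 422, 580 and 389 tags, or 243 ± 53.4 per kb.

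The label calls the samples epithelial cells, and some markers of other cell types were detected too. In these bulk samples fewer cells of a type and less RNA per cell cannot be told apart, and how much the neighbouring tissues add to the levels above was not tested. Head mesenchyme had 18 of 22 genes (81.8%) detected, against 60.1% of coding genes. Its median was 2.41 per kb, and 934 to 1697 tags were summed over the list in a library. Six2 led it, followed by Foxd1 at 11.3 ± 5.2, Col3a1 at 277, 554 and 433 tags (11.3 ± 3.71 per kb) and Foxc1 at 7.41 ± 2.00, while Osr2 and Alx1 were above background in no library. Cartilage had 7 of 12 (58.3%), near the coding share, at a median of 0.70 per kb, under the 1.03 of coding genes. Col2a1 stood at 8.23 ± 2.15, Col9a2 at 2.05 ± 0.13 and Sox5 at 1.19 ± 0.37. The defining cartilage genes Acan and Matn1 passed in 1 or 2 libraries. The list summed to 1274 to 2034 tags.

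The neural lists had medians near the 1.03 per kb of coding genes. Regulators of the infundibulum and ventral diencephalon, the tissue that touches the pouch, had 8 of 17 (47.1%) detected, against 60.1% of coding genes. Their median was 1.19 per kb, with 275 to 467 tags in all. Nkx2-1 stood at 37.3, 53.6 and 36.4 tags, Rax at 23.6, 40 and 20.9 tags (7.72 ± 2.83 per kb) and Tbx2 at 4.69 ± 1.08, whereas Hmx2, Emx2, Vax1 and Hmx3 passed in no library. All 13 neuronal genes passed, at a median of 0.95 per kb, slightly under that of coding genes, and with 1124 to 1855 tags in all. Nefl was the densest at 18.96 ± 9.49, ahead of Tubb3 at 3.27 ± 1.37 and Map2 at 1.87 ± 0.51. Their long regions pass the counting rule at low density: set against the 95th percentile of the receptor genes instead, 4 of the 13 passed.

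Vessels were detected with little depth. Endothelium had 13 of 15 genes (86.7%) detected, against 60.1% of coding genes, and 8 passed the 95th percentile. The list had a median of 1.16 per kb and 526 to 842 tags in all. Cldn5 stood at 7.39 ± 3.91, Egfl7 at 2.91 ± 1.52 and Cdh5 at 46.4, 76.4 and 72.7 tags, or 1.55 ± 0.39 per kb, while Sox18, at 2.72 ± 0.91 per kb, passed in 1 or 2 libraries. Mural cells had 8 of 10 (80%), with Mcam at 7.17 ± 3.51, Notch3 at 3.44 ± 0.61 and Pdgfrb at 2.42 ± 0.77. The mural list had 326 to 556 tags in all, and 4 of its genes passed the 95th percentile.

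Blood was represented by red cells. Hba-x, an embryonic alpha-like globin, stood at 138, 244 and 337 tags over 715 bp, or 335 ± 139 per kb. Hbb-b2 stood at 13.8 ± 7.64 and Alas2, of heme synthesis, at 2.95 ± 1.39, and the embryonic Hbb-y held 1.82, 0.91 and 7.27 tags. The list had 6 of 13 (46.2%) detected, against 60.1% of coding genes, with 329 to 593 tags in all. Macrophage genes had 3 of 15 (20%) detected and 84.5 to 167 tags in all. Csf1r was one of them at 20, 20.9 and 17.3 tags, Aif1 another at 1.296 ± 0.57 per kb, C1qa and C1qc passed in 1 or 2 libraries, and Fcer1g, Trem2 and Sfpi1, an older name of Spi1, in none.

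The skeletal muscle, Schwann precursor, liver and germ cell lists had medians of 0.62, 0.70, 0.39 and 0.28 per kb. All were under the 1.03 of coding genes, and their detected shares were below the 60.1% of coding genes. Skeletal muscle had 2 of 18 detected, and Myod1, Myf5, Myf6, Myog and Chrna1 passed in no library. Myh3, one of the 2, held 20, 32.7 and 11.8 tags. Acta1, the densest of the list by its mean, held 0, 10.9 and 0 tags, all of them in library 10. Schwann precursors had 2 of 10, with Erbb3 at 2.41 ± 0.64, and Mia, Foxd3 and S100b passed in none. Liver had 0 of 10 detected, with Apoa1, Serpina1a, Ttr, Fga, Fgb and Alb in no library. Alb held 1.82, 2.73 and 0 tags over 14914 bp. Of 6 germ cell genes 0 were detected, and Zp3, Odf1, Sycp3, Ddx4 and Dazl passed in none. Of 13 keratin-associated genes, 43 defensins and 8 taste receptors 0 were detected, and of 61 drug-metabolising genes of the Cyp2 and Ugt families 7 were.

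**Figure D4:**
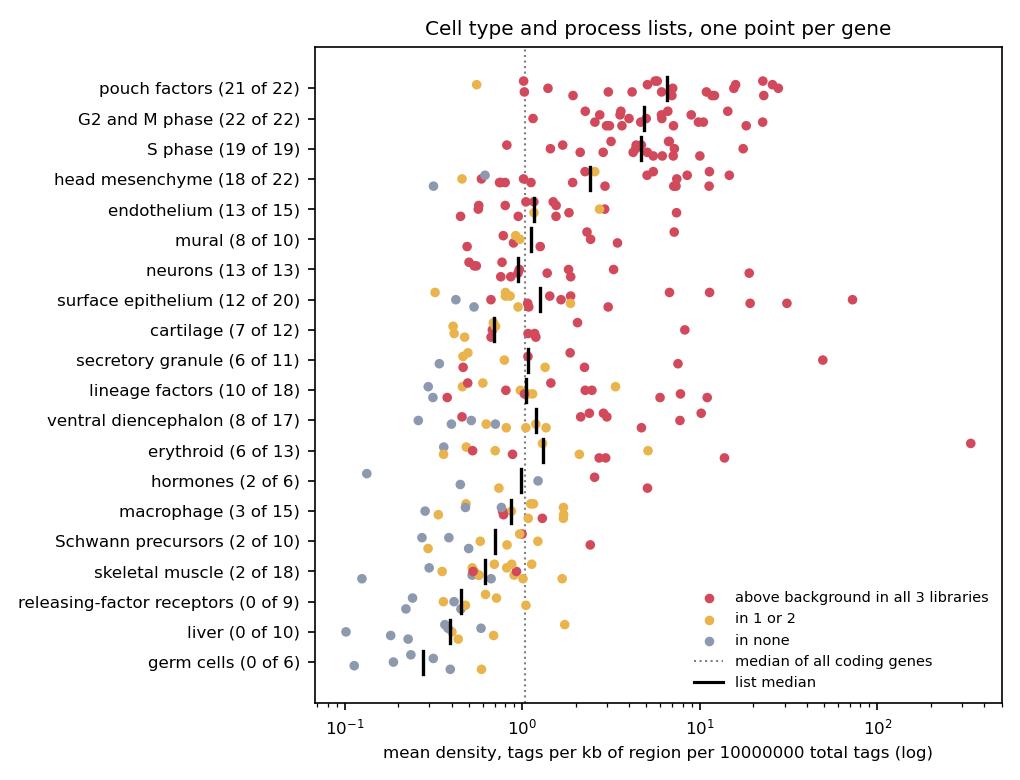
Mean density of each gene (horizontal, tags per kb of region per 10000000 total tags, log scale) in 20 lists, with the number detected of the number measured beside each name and a black bar at the list median. Pouch factors and cell cycle genes lie mostly right of the dotted median of coding genes, and releasing-factor receptors, liver and germ cell genes mostly left of it.

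Receptors had a larger detected share than ligands. Of 152 ligands and secreted antagonists 81 (53.3%) were detected, against 60.1% of coding genes, and 31 passed in no library. Of 47 receptors for the same families 45 (95.7%) were detected and 2, Fgfr4 and Fzd10, passed in 1 or 2 libraries. The detected share rises with region length, and ligands and receptors were not compared at like lengths. Receptors had a median density of 2.41 per kb and ligands 0.77. With the 95th percentile of the receptor background as the limit, 78 of the 199 ligands and receptors passed in place of 126.

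Midkine (Mdk), a heparin-binding growth factor of embryonic tissues, was the densest ligand at 85.5, 159 and 118 tags, or 72.8 ± 22.2 per kb. Dlk1, an imprinted Notch-like protein of pituitary cells, stood at 491, 562 and 680 tags, or 59.5 ± 9.83 per kb. The libraries of the pair overlapped. Proteins that bind insulin-like growth factors were among the next: Igfbp5 at 268, 469 and 460 tags (24.9 ± 7.09 per kb), Igfbp4 at 10.6 ± 2.99 and Igfbp2 at 6.01 ± 1.07. Igf2 itself stood at 15.4, 29.1 and 18.2 tags, or 2.12 ± 0.73 per kb.

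Ephrins, membrane ligands that guide cells by contact, took 4 of the 12 densest places, with Efnb2 at 9.63 ± 2.93, Efnb3 at 7.14 ± 0.74, Efna4 at 5.69 ± 1.48 and Efna5 at 5.63 ± 2.04. Cxcl12, a chemokine, stood at 9.04 ± 3.21 and its receptor Cxcr4 at 30, 34.5 and 30 tags, or 9.55 ± 0.80 per kb. Fstl1 at 5.47 ± 1.20 and Bambi, a decoy receptor of the BMP and TGF-beta family, at 3.65 ± 1.42 completed the 12.

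Among the families that pattern the pouch, each ligand list had a detected share below the 60.1% of coding genes. FGF ligands had 12 of 21 (57.1%) detected. Fgf10, the signal from the infundibulum, led them at 139, 345 and 311 tags (3.44 ± 1.43 per kb), and Fgf8 stood at 9.09, 10 and 6.36 tags (1.605 ± 0.36 per kb). BMP and TGF-beta ligands had 11 of 27 (40.7%). Bmp4 stood at 8.18, 18.2 and 9.09 tags and was detected, and Bmp2 at 5.45, 21.8 and 13.6 tags, passing in 1 or 2 libraries. WNT ligands had 8 of 18 (44.4%), led by Wnt5a at 40, 69.1 and 41.8 tags (2.61 ± 0.85 per kb). Among Hedgehog and Notch ligands 4 of 10 (40%) were detected, namely Dlk1, Jag1 at 3.55 ± 0.89, Jag2 and Dll1. Dll1 held 22.7 tags in each library. Shh, with 80, 143 and 61.8 tags over a listed region of 251425 bp, had 0.38 ± 0.17 per kb and passed in 1 or 2. That density is an average over the whole listed region, and how well the region matches the Shh gene was not tested. The antagonist Nog held 0, 0 and 1.82 tags, and Fst passed in no library.

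Frizzled receptors, which bind WNT ligands, took 6 of the 8 densest receptor places. Fzd2 stood at 54.5, 80.9 and 80.9 tags, or 25.5 ± 5.38 per kb, followed by Fzd5 at 12.7 ± 2.99, Fzd7 at 11.2 ± 2.63, Fzd8 at 11.1 ± 1.64, Fzd1 at 8.05 ± 2.31 and Fzd4 at 5.52 ± 1.75. The regions of these Frizzled genes run from 2545 bp for Fzd8 to 6392 bp for Fzd5, whereas Fzd3, with 69222 bp, stood at 3.85 ± 0.92. Ptch1, the receptor and a target gene of hedgehog signalling, stood at 378, 582 and 659 tags over 53187 bp, or 10.1 ± 2.73 per kb. The signal transducer Smo was lower at 4.35 ± 1.20.

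**Figure D5:**
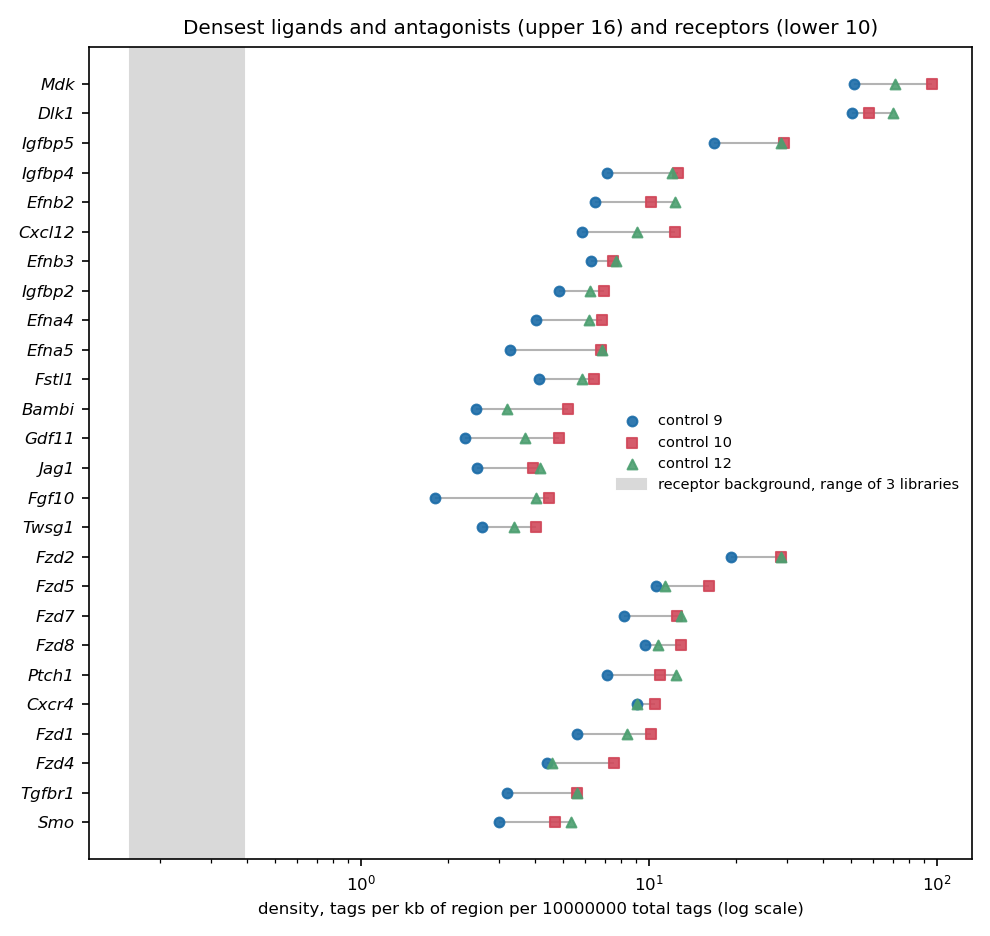
Density of the 16 densest ligands and antagonists and the 10 densest receptors (horizontal, tags per kb of region per 10000000 total tags, log scale), with one point per control library. All lie above the grey band of the receptor background, Mdk and Dlk1 stand apart from the other ligands, and Fzd2 from the other receptors.

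Over all coding genes the top of the ranking held no pouch factor. Among the 10 densest were Zc3h7a at 5458 tags per kb, Cdk8 at 3907, Lars2 at 1688, Il31ra at 1486, Mphosph8 at 1152, Fcgr4 at 979, Jarid2 at 916, Eef1a1 at 851 and Zfp791 at 709. Of the 50 densest, 16 overlap an annotated small RNA gene, against 9.22% of coding genes. These shares were not compared at like region lengths. The 21 of the 50 with regions of 20 kb and over had a median ratio of library 10 to library 9 of 0.71, and 18 of them were lower in library 10. The ratio was 0.76 for Rn45s, which took 22.2%, 16.8% and 23.5% of all tags. The other 29, with shorter regions, had a median ratio of 1.73, and the median over coding genes with a mean of at least 50 tags was 1.72. What these large regions count was not tested.

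Among 2594 coding genes with regions under 20 kb, no annotated small RNA gene and a mean of at least 20 tags, a selection made after the values were seen, genes used in most cells led. Hist2h3c2, a histone gene with a region of 219 bp, came first at 105, 165 and 133 tags (613 ± 139 per kb), ahead of ubiquitin Ubb at 543 ± 138, beta-actin Actb at 461 ± 122 and Hba-x. Tubb5, Rps15, H3f3b and Cdkn1c followed. The first 50 of this order held 14 genes of ribosomal proteins, Fau among them, and the histone genes Hist2h3c2, H3f3b and Hist1h3f. By length, Eef1a1, Hist2h3c2 and Ubb led the coding regions under 5 kb, and Fcgr4, Zfp791 and BC107364, which all overlap small RNA genes, those from 5 kb to under 20 kb. Zc3h7a and Cdk8 led from 20 kb to under 100 kb, and Jarid2, Filip1l and C230081A13Rik from 100 kb. In the class from 5 kb to under 20 kb, the neuronal and pituitary gene Nnat stood at 484 ± 122 per kb, with the small RNA gene Gm23134 in its region, and Maged1 at 88.1 ± 18.9.

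The 3 libraries differed from each other, and the number of differing genes depended on the scaling and on the background. Among 6277 genes with a mean of at least 50 tags, 1828 (29.1%) had a highest library at least 2 times the lowest with separate counting intervals, and the highest was library 10 in 1617 of them, library 12 in 208 and library 9 in 3. Library 10 had the least Rn45s, the highest median coding density (1.34, against 0.83 and 0.91 in libraries 9 and 12) and the highest receptor background. With edgeR TMM factors, which multiplied values by 1.27, 0.78 and 1.08, 304 of 6263 genes (4.85%) met the same rule. Of these, 153 were highest in library 9, 71 in library 10 and 80 in library 12, and 181 had regions of 100 kb and over. That split turned with the background. With TMM factors and the receptor density subtracted, 638 of 5098 genes met the rule. They were highest in library 9 in 53 cases, in library 10 in 57 and in library 12 in 528, and 159 were shared with the 304.

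Of the coding genes highest in library 12 before scaling, Kdm5d and Uty on the Y chromosome led, with 55.5, 3.64 and 90.9 tags and 168, 24.5 and 364.6 tags. Xist, the RNA of the inactive X chromosome, ran the other way at 45.5, 2089 and 13.6 tags, so library 10 was low in the Y-linked genes and high in Xist. Gxylt1, Eya4, a relative of Eya1, and Alas2 followed, each at least 2.91 times higher in library 12 than in library 9. The largest ratios among coding genes highest in library 10 were those of Slc25a3 (7.38), Tex14 (6.44), Tmem38b (5.30), Skint5 (5.28) and Pabpc4 (5.08), and 4 of these 5, all but Skint5, overlap small RNA genes. In library 9 the named coding genes were Acacb (2.77) and Cdh22 (2.30). Of the 304 genes left after scaling, 168 were lowest in library 12, and 139 of those had regions of 100 kb and over. The scaled receptor background was also lowest there, at 0.17 against 0.33 and 0.30.

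After scaling, library 12 was the highest for 53.2% of detected coding genes and for 65.2% of coding genes with a mean of at least 50 tags. Against this background 13 of 19 S phase genes (68.4%), 15 of 22 pouch factors (68.2%), 9 of 13 erythroid genes (69.2%) and 18 of 22 G2 and M phase genes (81.8%) were highest there, with no test of the difference. The summed scaled tags of the pouch factors were 2045, 2263 and 2887 in libraries 9, 10 and 12. Of the 36 HOX genes 25 (69.4%) were highest in library 9, as were 56.9% of the coding genes above background in no library, and the HOX sums of 129, 93.3 and 45.2 tags had the order of the scaled receptor background. Itgb1, the floxed gene, stood at 273, 426 and 431 tags before scaling, or 7.99 per kb, and was detected in all 3 control libraries.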

How the data were processed

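RNA of control mouse pituitaries (e12.5, replicates 9, 10 and 12) was analysed. The authors deposited a normalized signal for each gene region, scaled to 10000000 tags in a library, per the file headers. Bowtie2, HOMER, edgeR and the build mm9 are listed, without roles or versions, in the submitters' processing notes. The table lists 21022 regions, introns included; the longest was kept for each of 20097 symbols. The strand of a region was not used, so overlapping and antisense genes were not told apart. Regions were a median of 830 bp shorter than the RefSeq gene. Each value was a whole number of reads (100%, to within 0.01 reads) if a library held 11000000 tags. Reads recovered in this way summed to 5806107, 5445240 and 6143263 in libraries 9, 10 and 12. Coding genes follow the RefSeq biotype (19972 symbols matched), and small RNA genes GENCODE vM21.

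Densities, exact Poisson intervals at 95% and ranks were computed with Python 3.11.15, scipy 1.17.1 and pandas 2.3.3, and TMM factors with edgeR 4.0.16 in R 4.3.3. The detection rule was tried on simulated Poisson counts with an even background density in each library. Raised genes were placed only in regions over 20 kb. The trial therefore does not cover short regions or an uneven background. No test between groups was made, since there was 1 group. Gene lists, members and naming rules were chosen with earlier results of these data known. The named genes were the pouch markers, the 10 densest coding genes and 3 per length class, the 20 densest transcription factors, 12 ligands and 8 receptors at a mean of at least 20 tags, the 3 densest members of each cell type list, its members above background in no library where 6 or fewer, all hormone genes, and the 5 most variable genes per library. Other genes named were chosen after their values were seen. The alternatives were the interval, background genes and limit, region, filter, scaling and leaving out each library. A few genes taken by these rules are left out of the text.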

Additional observations from a re-analysis of the deposited data

How the results depend on the processing

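Counts of detected genes kept within 1.5 times of their main value under most alternatives. The detected genes (11610) ranged from 8494, with the 95th percentile of receptor densities as the limit, to 12360 without library 9, and the transcription factors (315) from 240 to 339. Ligands and receptors fell from 126 to 78 with that percentile. Genes not above background fell from 4728 to 1378 when a mean of at least 5 tags was asked for, because that filter removes genes of low level. Leaving out 1 library gave 11876 to 12360 detected genes, 5251 to 5566 not above background, 327 to 339 transcription factors, 130 to 134 ligands and receptors, and 47 to 49 of the 50 densest coding genes. Ranking only regions under 20 kb without a small RNA gene, added after the data were seen, shared 19 of those 50. Of 20 cell type lists 11 had a median above that of coding genes, and 7 to 10 with 1 library left out, 7 of them without library 9. The variable genes (1828) numbered 304 with TMM factors, 638 with TMM factors and the receptor density subtracted (also added after the data were seen), 979 at a mean of at least 100 tags, and 412 to 1271 with 1 library left out: 554 without library 9, 412 without library 10 and 1271 without library 12. The cause of these shifts was not tested. Of 168 counts of detected list members under alternatives, 155 stayed within the same bound, 4 were higher and 9 lower. Among them, HOX genes went from 0 to 1 with the 95th percentile, liver genes from 0 to 1 without library 10, releasing-factor receptors from 0 to 1 and skeletal muscle genes from 2 to 5 without library 12, cartilage from 7 to 3 and macrophage genes from 3 to 1 with the percentile. Depth limits short and low genes. No paired analysis was possible because a single group was described and its replicate numbers are shared with no other group.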
